A study of Rattus norvegicus with 12 samples.

Results

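The comparison described here is thermal injury against sham in rats at day 2, the second of 4 time points (days 1, 2, 4 and 7) of an experiment on Affymetrix RAE230A arrays. Its members are the 3 samples labelled as day 2, samples 1 to 3, out of 12 in the series. The labels give each sample as a pair of total RNA channels, a sham control in channel 1 and a thermal injury in channel 2. They give no strain, age, tissue, size of the injury or treatment of the sham rats. They also do not say whether the 3 samples came from separate animals. The p-values therefore rest only on the spread between samples of the same day, which may be technical. That spread was pooled over days 2, 4 and 7 and drawn towards that of genes of similar signal. Each sample has 1 deposited value per probe set, a log2 ratio of 2 array signals, so that 1 unit is a 2-fold difference. Which channel was divided by which is not stated. Injury over sham is likely, given which channel the labels name last, and every direction below rests on that reading. After averaging the probe sets of a gene, 10411 genes were measured in each of the 3 samples.

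A burn that covers much of the skin sets off a systemic reaction in organs far from the wound. Cytokines, mainly interleukin 6 and interleukin 1, act through STAT3, C/EBP and NF-kB factors on the liver, which then secretes acute-phase proteins: carriers, protease inhibitors and complement components. Glucocorticoids and catecholamines act at the same time on glucose, fat and amino acid metabolism. Many genes of these pathways are made mainly in hepatocytes, and lists of liver genes are used below for that reason. In bulk samples, a change in the number of cells of a type and a change in RNA per cell cannot be told apart.

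The 3 samples resembled each other little across all genes. Pearson's r across the 10411 genes, which are not independent replicates, was 0.089 between samples 1 and 2, -0.0049 between samples 1 and 3 and -0.0013 between samples 2 and 3. Among the genes in the brightest of 4 equal bins of signal, r was 0.405 between samples 1 and 2 and 0.0933 between samples 2 and 3. Sample 3 therefore stood apart from the other two in this measure. The log2 ratio of injury over sham was different at the 3′ and 5′ actin probe sets (3′ minus 5′ of -0.79, -0.31 and -0.06 in samples 1, 2 and 3), so the 3′ to 5′ balance, a sign of RNA integrity, differed most between the channels of sample 1. The part of this difference in the results was not tested. The identifiers of day 1 did not follow those of the other days (rank correlation of recovered signals between -0.0040 and 0.0188 for 27 pairs of arrays, against 0.651 to 0.702 for the 36 pairs within days 2, 4 and 7), so no gene of day 1 is used.

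At day 2, 12 genes rose and 3 fell. Those that rose were the acute-phase protein gene Orm1, the protease inhibitor genes Spink1, Spink1l, A2m and Serpina10, the complement regulator C4bpa, the lipid genes Cd36 and Apob, the growth axis genes Igfbp1 and Cyp2c12, the phosphatase gene Dusp1 and the matrix protease gene Mmp14. Those that fell were Prkaa2, Ces1d and Ciao3. Their mean log2 ratios ranged in size from 0.70 to 4.28, 11 of the 15 were past 2-fold, and each had the same sign in all 3 samples. The 15 genes are 0.144% of the 10411 tested (0.115% higher and 0.0288% lower), at an adjusted p under 0.05 from limma with Benjamini-Hochberg adjustment over all genes. At an unadjusted p under 0.05 there were 881 genes (8.46%), of which 491 were higher (4.72%) and 390 lower (3.75%). The count of 15 depended on the samples and on the model of the spread. It was 7 without sample 1, 0 without sample 2 and 11 without sample 3. In the first and the last case 6 of the 15 were among those called, but not the same 6: only Mmp14 and Orm1 were in both. Leaving out a sample of day 4 or day 7, which share the estimate of spread, gave 11, 7 and 9 genes for day 4 samples 1, 2 and 3, and 8, 9 and 11 for day 7 samples 1, 2 and 3. With a variance prior that did not follow signal, no gene passed, and 809 had an unadjusted p under 0.05.

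**Figure D1:**
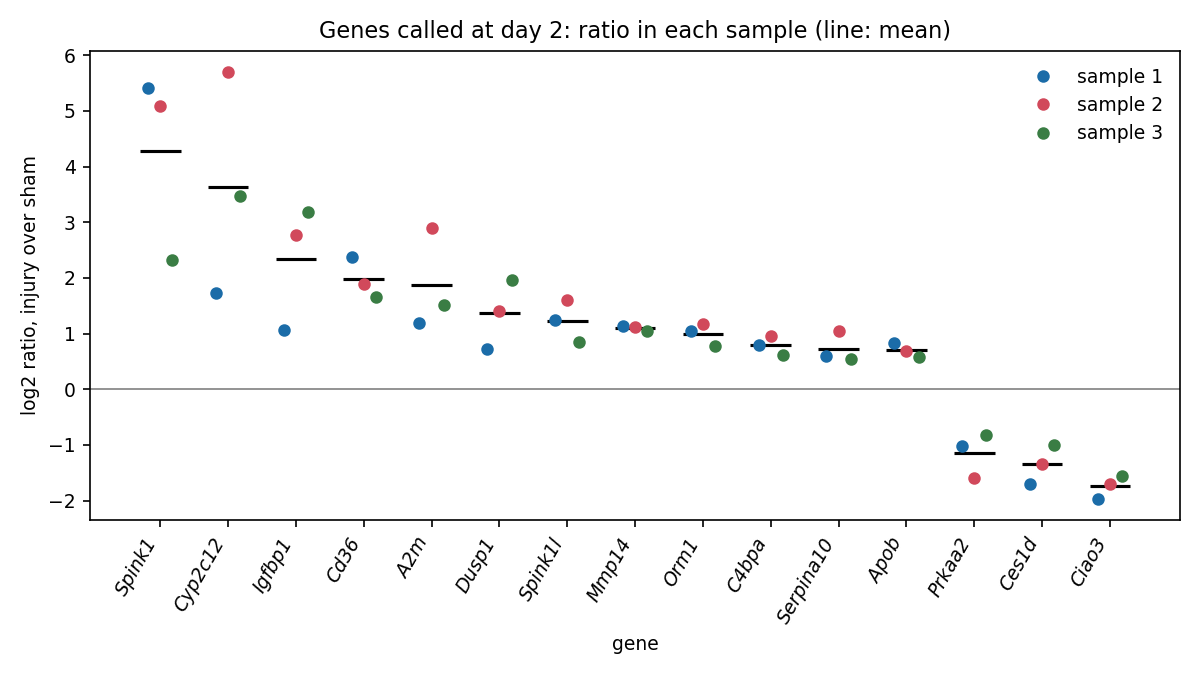
Log2 ratio of injury over sham (vertical axis) of the 15 genes that passed at day 2, one column per gene, with a point for each of the 3 samples and a line at the mean. All 3 points of each gene lie on one side of 0, from the 12 genes above 0 at the left to Prkaa2, Ces1d and Ciao3 below 0 at the right.

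Most genes that passed had a high signal. Signal here is the weaker of the 2 array signals that a ratio was made of, as recovered from the ratio itself. Of the 15 genes, 7 were in the brightest of the 4 bins, 5 in the next, 2 in the one after and 1 in the dimmest. The median SD over the 3 samples was 0.771 in the dimmest bin and 0.231 in the brightest. Of the 370 genes whose mean was past 2-fold (3.55%), 289 were in the dimmest bin and 9 in the brightest. In each of the 3 samples at once, 28 genes were past 2-fold higher and 19 past 2-fold lower, and 6 and 1 of these passed the test.

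**Figure D2:**
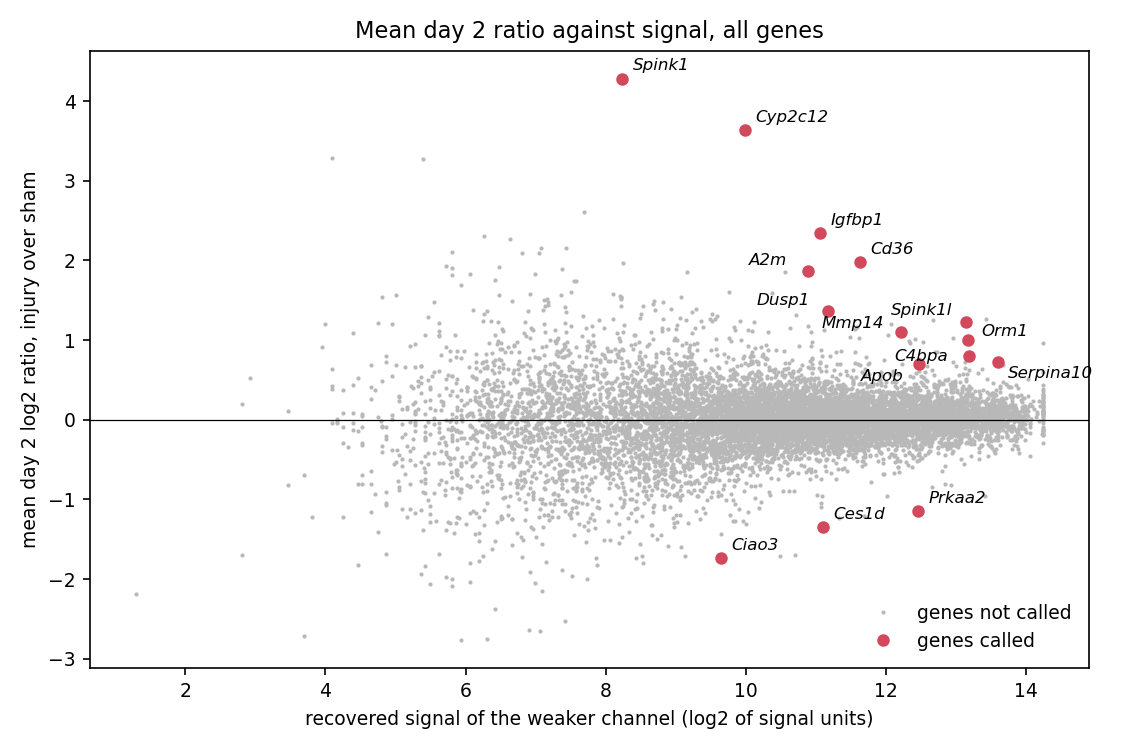
Mean day 2 log2 ratio of injury over sham (vertical axis) against the recovered signal of the weaker channel in log2 units (horizontal axis), one point per gene, with the 15 genes that passed in red. Ratios spread widely at low signal and narrow to the right; Spink1 and Cyp2c12 lie highest among the genes that passed, and Orm1, C4bpa, Spink1l and Serpina10 lie at the bright end.

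Promoters are shown for 3 of these genes because they hold matches to motifs of acute-phase or signal-responsive factors, in a gene that fell (Ces1d) and in genes that rose (Orm1, Dusp1). The 250 bases before the start of each gene are from RefSeq (GRCr8), 5′ to 3′ on the gene's strand, and capitals mark the motif matches.
Orm1 (chr5:81788259-81788508, + strand): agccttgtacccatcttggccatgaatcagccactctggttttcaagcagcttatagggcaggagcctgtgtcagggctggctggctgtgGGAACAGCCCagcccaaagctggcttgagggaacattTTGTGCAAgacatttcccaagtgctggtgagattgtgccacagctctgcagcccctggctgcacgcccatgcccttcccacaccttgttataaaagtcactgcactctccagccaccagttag
Ces1d (chr19:30046244-30046493, + strand): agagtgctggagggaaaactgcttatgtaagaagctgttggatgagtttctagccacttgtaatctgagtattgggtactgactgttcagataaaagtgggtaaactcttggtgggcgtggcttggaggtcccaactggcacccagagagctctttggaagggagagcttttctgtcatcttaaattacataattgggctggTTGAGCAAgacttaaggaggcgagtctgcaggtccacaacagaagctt
Dusp1 (chr10:17184603-17184852, + strand): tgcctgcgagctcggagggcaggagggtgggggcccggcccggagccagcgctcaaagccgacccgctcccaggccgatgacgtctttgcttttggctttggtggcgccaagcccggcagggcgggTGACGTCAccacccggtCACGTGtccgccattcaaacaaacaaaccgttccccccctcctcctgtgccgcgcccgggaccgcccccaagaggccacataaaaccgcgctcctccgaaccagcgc
Orm1 holds a C/EBP type match and an NF-kB type match, Ces1d a C/EBP type match, and Dusp1 a cyclic AMP element type match followed by an E-box. Promoters were found for 11 of the 15 genes. On both strands, TTGCNNAA (C/EBP type) was in 4 of the 11 (Orm1, C4bpa, Cyp2c12 and Ces1d) and in 9.20% of all 27457 promoters of this length. TTCNNNGAA (STAT type) was in 1 of the 11, Ciao3, and in 7.52% of all. The NF-kB type motif (GGG, any 3 bases, TTCC) was in 1, Orm1, and in 4.53% of all. TGACGTCA was in 1, Dusp1, and in 1.70% of all, CACGTG (E-box) in 1, again Dusp1, and in 5.79% of all, and TCACNCCAC (sterol element type) in 0 and in 0.976% of all. The 11 genes come from the genes tested, for which 8630 promoters were found. Of these, 7.97% held the C/EBP type motif, 5.92% the STAT type and 5.56% the NF-kB type. The shares were 2.65% for TGACGTCA, 7.89% for CACGTG and 1.03% for TCACNCCAC. A match describes these letters and is not evidence of a bound site. For C4bpa, Cyp2c12, Ciao3, Prkaa2 and Cd36 the window in the promoter table overlaps the span of the gene.

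Among acute-phase binding and defence proteins, Orm1 rose and most other members had ratios above 0. Orm1 encodes alpha-1-acid glycoprotein, a plasma carrier of basic and neutral drugs that is a classic acute-phase protein (GRCr8 chr5:81788509-81791661). Its log2 ratios were 1.06, 1.17 and 0.77 in samples 1, 2 and 3, so all 3 samples were high and close together. The mean was 1.00 ± 0.20 (SD, n = 3), a 2.00-fold higher level, with an adjusted p of 0.00737. It passed in 14 of the 18 other settings tried. Lcn2, which encodes the iron-siderophore binding protein lipocalin 2, had ratios of 2.14, 2.19 and 1.22 and a mean of 1.85 ± 0.54, and did not pass (adjusted p = 0.0555). Lbp, which carries bacterial lipopolysaccharide to its receptor, had ratios of 0.55, 1.78 and 1.45 (adjusted p = 0.182). Haptoglobin, Hp, which binds free haemoglobin, had small ratios of 0.15, 0.37 and 0.26 (adjusted p = 0.548). Hemopexin, Hpx, which binds free heme, was at 0.17, 0.47 and 0.47.
Of the 17 measured members of the list, 15 had a mean above 0, against 50.8% of all genes, and 9 were above 0 in all 3 samples, against 13.8% of all genes. None was below 0 in all 3 samples, against 13.1% of all genes. The same shares of all genes stand beside the counts of every list below. The median of the members' means was 0.29, beside 0.00 for all genes, and 1 member passed the test. Without sample 1, 2 or 3 the median was 0.31, 0.32 or 0.26. The list median was lower in sample 1 (0.15) than in samples 2 and 3 (0.40 and 0.40), and sample 1 was also the one whose injury and sham channels differed most in 3′ to 5′ actin balance; the part of that difference was not tested.

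Plasma protease inhibitors held the most genes that rose, 4 of 19 measured members, against 0.115% of all genes. The 4 count Spink1 and Spink1l separately, although these may share signal and Spink1 did not pass with its brightest probe set alone. These proteins limit proteases released by coagulation, complement and inflammatory cells. A2m encodes alpha-2-macroglobulin, the major acute-phase protein of the rat, a trap for proteases of all classes (GRCr8 chr4:156570163-156619870). Its ratios were 1.19, 2.90 and 1.52, with sample 2 well above the others. The mean was 1.87 ± 0.91, 3.65-fold higher, with an adjusted p of 0.0343, and A2m passed in 6 of the 18 other settings. Serpina10 encodes the protein Z-dependent inhibitor of coagulation factor X. It had ratios of 0.61, 1.04 and 0.54, a mean of 0.73 ± 0.27 and an adjusted p of 0.0424. Serpina10 passed in 3 of the 18 other settings.
Spink1 and Spink1l encode small Kazal-type trypsin inhibitors, first known from pancreatic juice, and lie near each other on chromosome 18. Spink1l had ratios of 1.25, 1.60 and 0.85, a mean of 1.23 ± 0.38 and an adjusted p of 0.00737. Spink1 had ratios of 5.42, 5.09 and 2.33, high in all 3 samples and lowest in sample 3, with a mean of 4.28 ± 1.70 and an adjusted p of 0.0354. That mean joins 3 probe sets that disagreed. One was at 0.82 ± 0.28 and the others at 5.77 ± 2.32 and 6.25 ± 2.50. With the brightest probe set alone the mean was 0.82 and Spink1 did not pass (adjusted p = 0.108; 0.0177 to 0.318 over all settings). The pair are close paralogs, and signal of one may be counted under the other. Beside them, of 19 measured markers of the exocrine pancreas, most of them digestive enzyme genes, 8 had a mean above 0, 5 were below 0 in all 3 samples, the median was -0.04 (-0.20 without sample 3), and none passed.
Of the other inhibitors, Kng2l1, a kininogen-like gene, had 1.09, 1.45 and 0.44 over 3 probe sets (adjusted p = 0.182). Serpinf2, the inhibitor of plasmin, was at 0.16, 0.64 and 0.46, and Serping1, the inhibitor of complement C1, at 0.20, 0.28 and 0.88. Of the 19 members, 14 were above 0 (50.8% of all genes), 9 were above 0 in all 3 samples (13.8%) and none below 0 in all 3 (13.1%). The median was 0.27, the sample medians were 0.15, 0.28 and 0.39, and the median was 0.42 without sample 1 and 0.18 without sample 3.

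**Figure D3:**
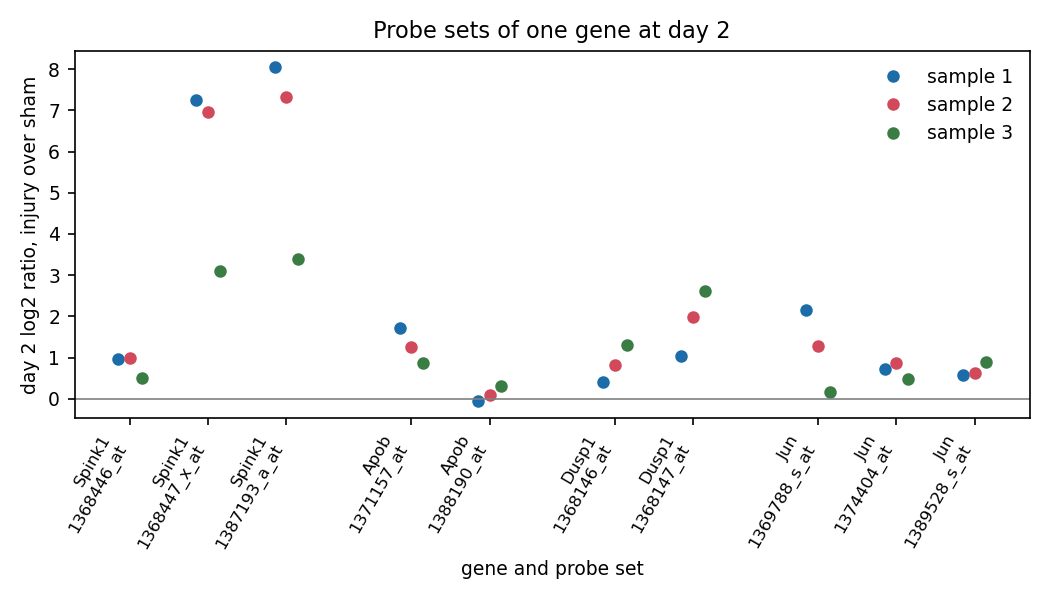
Day 2 log2 ratio of injury over sham (vertical axis) for each probe set of Spink1, Apob, Dusp1 and Jun, with a point per sample. The probe sets of Spink1 split into one near 1 and others with all 3 samples above 3, and 1 of the 2 of Apob lies near 0, while those of Dusp1 and Jun are all above 0.

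Complement genes followed with a single gene that passed. C4bpa encodes the alpha chain of C4b-binding protein, which stops the classical pathway convertase (GRCr8 chr13:44627959-44663552). Its ratios of 0.80, 0.96 and 0.62 gave a mean of 0.79 ± 0.17 and an adjusted p of 0.0221. Its partner chain C4bpb had ratios of 0.32, 0.60 and 0.31 (adjusted p = 0.291). C9, of the membrane attack complex, was at 0.22, 0.56 and 0.60, and Cfi, the protease that cleaves C3b and C4b, at 0.33, 0.47 and 0.40. Of 18 complement members 15 were above 0, 5 in all 3 samples and none below 0 in all 3, with a median of 0.23. That median was -0.02 in sample 1 and 0.47 and 0.31 in samples 2 and 3, and between 0.14 and 0.34 with 1 sample left out.
Coagulation and fibrinolysis genes had 7 of 17 members above 0 in all 3 samples, a median of 0.15 (0.05 without sample 3, 0.29 without sample 1) and none that passed. The fibrinogen chain gene Fga was at 0.14, 0.41 and 0.56, and plasma kallikrein, Klkb1, at 0.28, 0.63 and 0.38. The tissue plasminogen activator gene Plat had ratios below 0 in all 3 samples, -1.10, -0.49 and -0.54.
The list of carrier and negative acute-phase proteins had 10 of 12 measured members above 0 and a median of 0.13 (between 0.08 and 0.19 with 1 sample left out), and none passed. It also names Fabp1, an intracellular protein, and Dbp, a clock gene, so it is not made up of plasma carriers alone. Albumin, Alb, the main plasma protein, was at 0.02, 0.26 and 0.13 (adjusted p = 0.797). Serpina6, the corticosteroid-binding globulin, was at 0.16, 0.34 and 0.42.

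**Figure D4:**
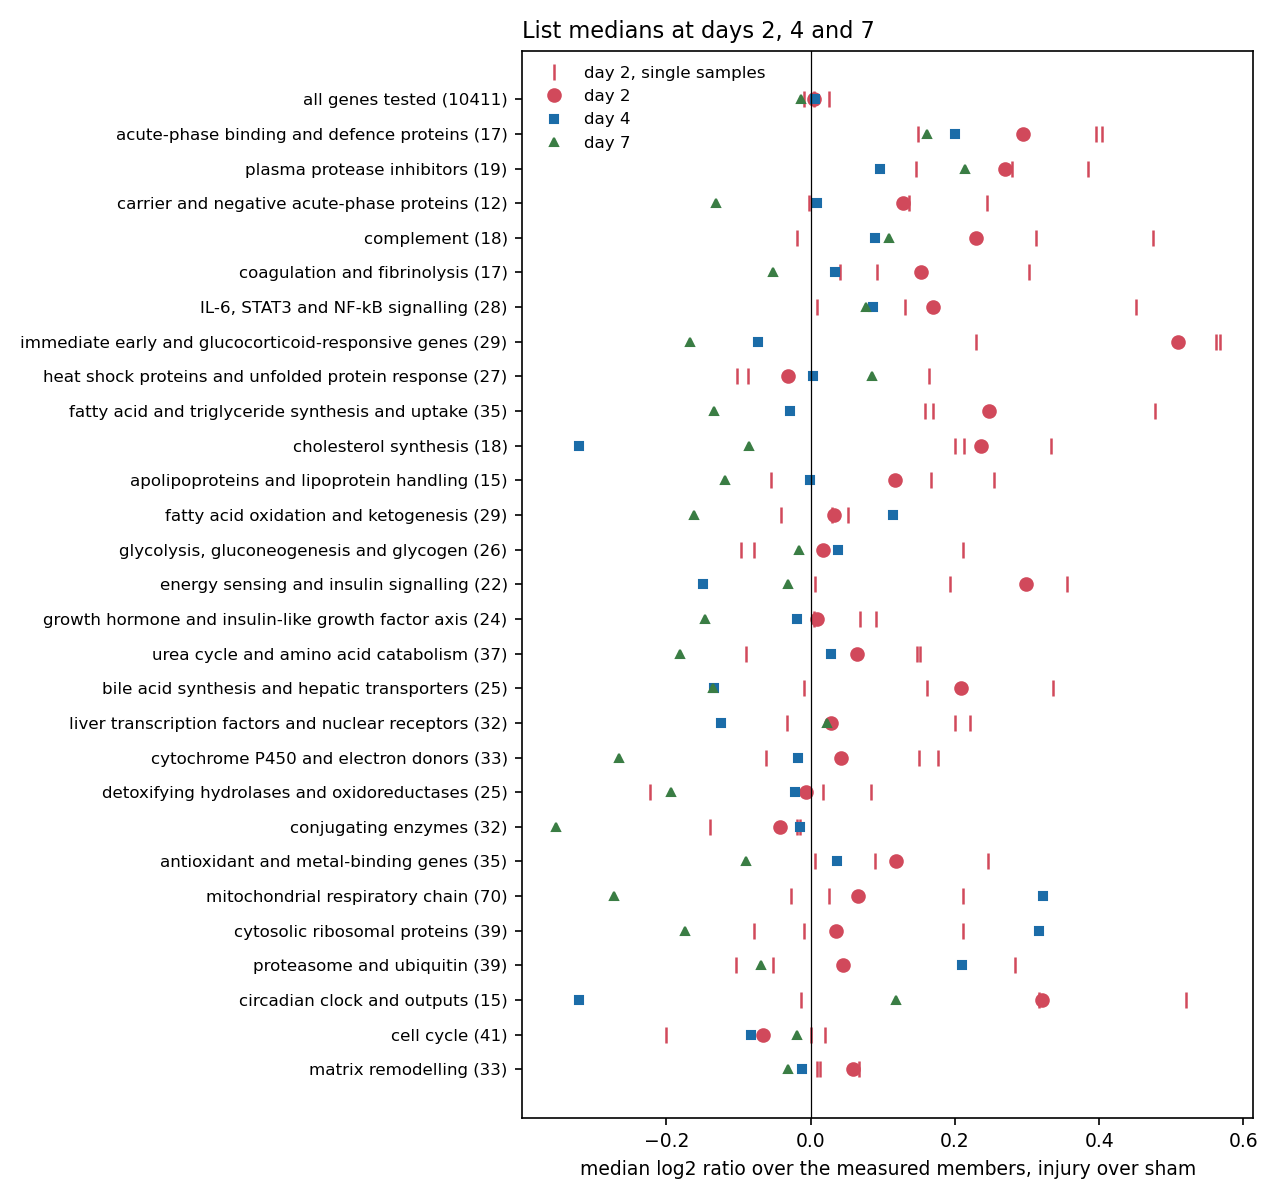
Median log2 ratio of injury over sham (horizontal axis) over the measured members of each pathway list (rows, number of members in parentheses) at day 2 (circles; ticks are the single samples), day 4 (squares) and day 7 (triangles). The day 2 median of the immediate early and glucocorticoid-responsive genes, 0.51, lies farthest to the right, followed by circadian clock genes at 0.32, energy sensing genes at 0.30 and acute-phase proteins at 0.29.

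Of the genes that carry the cytokine signal, none of 28 measured members passed. Socs3, the feedback inhibitor induced by STAT3, had tight ratios of 0.70, 0.75 and 0.85 (mean 0.77 ± 0.07, adjusted p = 0.294). The interleukin 1 receptor gene Il1r1 had 1.43, 1.33 and 0.59 (adjusted p = 0.263), and the kinase gene Jak2 0.65, 0.62 and 1.18 (adjusted p = 0.437). Rela, the p65 subunit of NF-kB, was below 0 in all 3 samples at -0.33, -0.62 and -0.57 (adjusted p = 0.181). Stat3 itself was at 0.14, 0.92 and -0.14, with 2 probe sets at 0.07 and 0.54. The list had 6 members above 0 and 3 below 0 in all 3 samples and a median of 0.17, and its median was 0.45 in sample 2 against 0.13 and 0.01 in samples 1 and 3, and 0.06 without sample 2.

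Immediate early and glucocorticoid-responsive genes had the highest median of the pathway lists at day 2 with all 3 samples; without sample 3, circadian clock genes were higher (0.46 against 0.38). These genes are switched on within minutes to hours by growth factors, stress kinases or the glucocorticoid receptor. Dusp1, a phosphatase that inactivates p38 and JNK kinases, rose (GRCr8 chr10:17184853-17187646). Its ratios were 0.73, 1.41 and 1.96, higher than the ratio of every sample of days 4 and 7, where the highest was 0.64. Dusp1 was chosen by its day 2 values, so this is a description. Its differences did not pass in the main limma test (adjusted p = 0.0627 for day 2 minus day 4 and 0.470 for day 2 minus day 7). The day 2 mean was 1.37 ± 0.62 and its adjusted p 0.0424. Its 2 probe sets were at 0.85 and 1.88, and with the brighter alone it did not pass (adjusted p = 0.0765; 0.0252 to 0.318 over all settings, 2 of 18 under 0.05).
The next members did not pass. Tat, tyrosine aminotransferase, a glucocorticoid-induced liver enzyme, had 1.06, 1.29 and 0.57 (adjusted p = 0.0555). Jun, a subunit of AP-1, had 1.16, 0.93 and 0.51 over 3 probe sets (adjusted p = 0.0621). Sgk1, a glucocorticoid-induced kinase, had 1.25, 1.54 and 0.82 (adjusted p = 0.124).
The metallothionein gene Mt2A, whose product binds zinc and copper, had 1.58, 1.66 and 0.57 (adjusted p = 0.108). Gadd45b, a stress-induced regulator of kinases, had 2.06, 3.36 and 2.40 (adjusted p = 0.208). Junb had 1.34, 0.84 and 0.91, and Myc 0.88, 0.42 and 1.29. All of these members had all 3 samples above 0.
Of the 29 measured members, 25 had a mean above 0, 13 were above 0 in all 3 samples and none was below 0 in all 3. At an unadjusted p under 0.05 there were 11 members higher and none lower, beside 4.72% and 3.75% of all genes. The median was 0.51, with sample medians of 0.23, 0.56 and 0.57, and between 0.38 and 0.69 with 1 sample left out. At days 4 and 7 the medians were -0.07 and -0.17, and 13 and 10 of the 29 members were above 0.

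**Figure D5:**
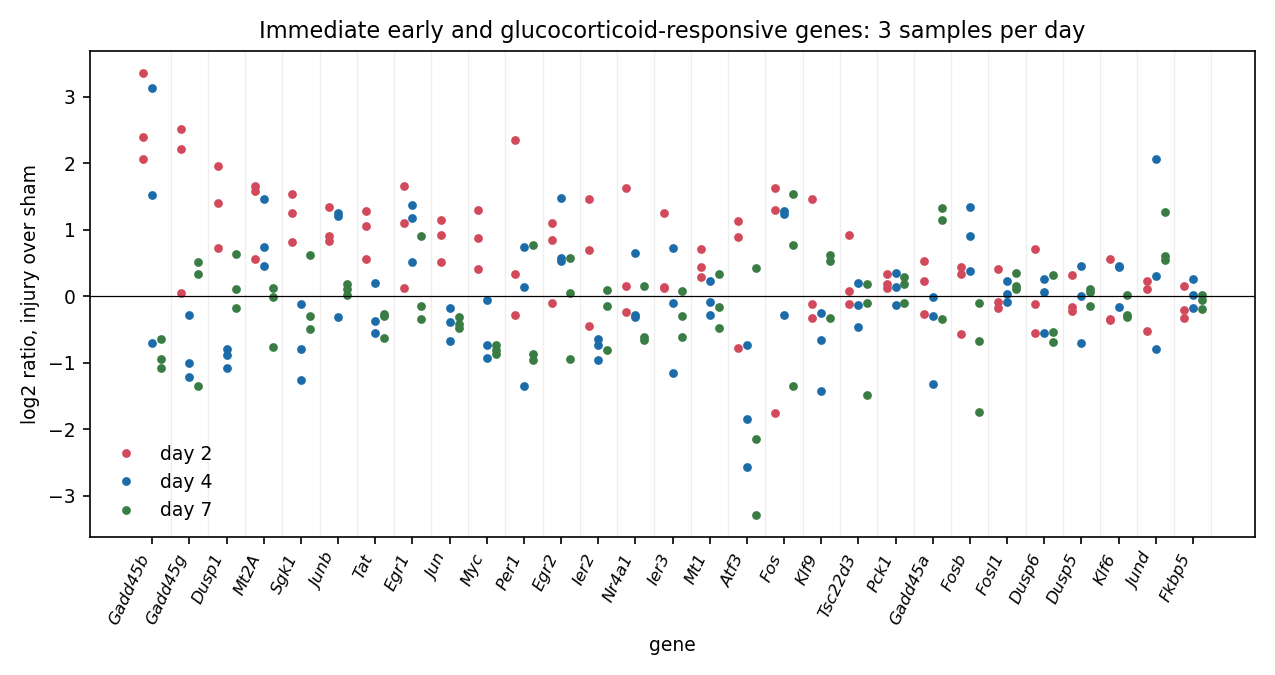
Log2 ratio of injury over sham (vertical axis) of the 29 measured immediate early and glucocorticoid-responsive genes, ordered by their day 2 mean, with 3 points per day for days 2, 4 and 7. The day 2 points of Dusp1, Tat, Sgk1, Jun and Myc all lie above 0, and most points of days 4 and 7 for these genes lie below 0.

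Lipid genes held a pair that rose. Cd36 encodes a scavenger receptor that takes up long-chain fatty acids (GRCr8 chr4:18209088-18302142). Its ratios of 2.37, 1.90 and 1.66 gave a mean of 1.98 ± 0.36, 3.94-fold higher, and an adjusted p of 0.0366. Apob, the structural protein of very low density lipoprotein (GRCr8 chr6:36563704-36603300), had ratios of 0.83, 0.68 and 0.59, a mean of 0.70 ± 0.12 and an adjusted p of 0.0366. Its 2 probe sets disagreed, at 1.28 and 0.12, and with the brighter one alone the mean was 0.12 and it did not pass (adjusted p = 0.861; 0.0228 to 0.861 over all settings).
Of the 35 measured genes of fatty acid and triglyceride synthesis and uptake, 28 had a mean above 0, 12 were above 0 and 2 below 0 in all 3 samples, and the median was 0.25 (0.12 without sample 2). The elongase gene Elovl5 had 0.56, 0.48 and 0.41 (2 probe sets, with means of 0.74 and 0.23), and the mitochondrial acyltransferase gene Gpam 0.63, 0.66 and 1.10. The desaturase gene Scd was high in samples 1 and 2, at 1.69 and 1.25, and at -0.30 in sample 3. Acacb, which makes the malonyl-CoA that restrains fatty acid entry into mitochondria, had 1.10, 1.52 and 0.06. Srebf1, the regulator of fatty acid synthesis, was at 0.12, 0.16 and 0.16 (adjusted p = 0.832).
Of 18 cholesterol synthesis genes, 17 had a mean above 0 and 7 were above 0 in all 3 samples, with a median of 0.24 and sample medians of 0.20, 0.21 and 0.33, and none passed. Ebp, a sterol isomerase, had 0.63, 1.15 and 0.40 (adjusted p = 0.127), and Sqle, the squalene epoxidase, 0.62, 0.32 and 0.72 (adjusted p = 0.430). The list median was -0.32 at day 4 and -0.09 at day 7.
Apolipoprotein genes had 5 of 15 above 0 in all 3 samples and a median of 0.12 (0.21 without sample 1, 0.02 without sample 2). Fatty acid oxidation genes had a median of 0.03, with 3 members above 0 and 5 below 0 in all 3 samples. Their coactivator Ppargc1a had a large but variable ratio of 3.56, 4.55 and 1.75 at low signal (adjusted p = 0.250).

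In energy sensing and growth control, 1 gene fell and others rose. Prkaa2 encodes the alpha-2 catalytic subunit of the AMP-activated kinase, which senses low cell energy (GRCr8 chr5:125036945-125109010). Its ratios were -1.03, -1.59 and -0.82, with a mean of -1.14 ± 0.40 and an adjusted p of 0.0246. The alpha-1 subunit gene Prkaa1 had ratios of 1.27, 0.49 and 0.04 (adjusted p = 0.557). The insulin receptor gene Insr was at 1.22, 0.70 and 0.19, and the transcription factor gene Foxo1 at 0.81, 0.43 and 1.27. Foxo1 joins 3 probe sets with means of 1.52, 0.77 and 0.23. Of the 22 members of this list, 17 were above 0, 6 in all 3 samples, and the median was 0.30, 0.01 in sample 1 alone and 0.19 without sample 3.
Igfbp1 encodes a liver-secreted protein that binds insulin-like growth factors, and is known to go up with low insulin and with glucocorticoids (GRCr8 chr14:86261277-86266344). Its ratios were 1.07, 2.77 and 3.19, lowest in sample 1. The mean was 2.34 ± 1.12, 5.07-fold higher, with an adjusted p of 0.0366. The day 4 mean was 2.24 ± 0.72, and all 3 samples of day 7 were below 0. Igf1 was near 0 at 0.06, -0.14 and 0.17 (adjusted p = 0.973).
Cyp2c12 is a steroid-hydroxylating cytochrome P450 that in rats depends on the pattern of growth hormone secretion and is known as the female form (GRCr8 chr1:248619887-248681945). Its ratios were 1.72, 5.70 and 3.47, above 0 in all samples but far apart, with a mean of 3.63 ± 1.99 and an adjusted p of 0.0424. Cyp2c12 passed in 4 of the 18 other settings. In sample 1 the 2 recovered signals were 107 for sham and 361 for injury in lowest terms. Cyp2c genes are related in sequence, so signal of a related gene may be counted under it. Its male counterpart Cyp2c11 was at -0.36, 0.22 and -0.14 (adjusted p = 0.933). Of the 24 members of the growth hormone and insulin-like growth factor list, 13 were above 0 and the median was 0.01.
Of glucose genes, 5 of 26 were above 0 in all 3 samples and the median was 0.02. Pck2, the mitochondrial form of phosphoenolpyruvate carboxykinase, had 0.63, 0.82 and 0.65 (adjusted p = 0.288). These are the means of 2 probe sets that disagreed, at 1.08 and 0.32, the latter at -0.14 in sample 2.

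Detoxifying enzymes included a gene that fell. Ces1d encodes a carboxylesterase that hydrolyses lipid esters and drugs (GRCr8 chr19:30046494-30085039). Its ratios were -1.70, -1.35 and -0.99, all low, with a mean of -1.35 ± 0.35 and an adjusted p of 0.0493. Ces1d passed in 5 of the 18 other settings. Fmo1, a flavin monooxygenase, had closely spaced ratios of -0.84, -0.76 and -0.86 (adjusted p = 0.163), and Akr7a3, an aldehyde reductase, -0.64, -0.30 and -0.40. Of the 25 members of this list, 4 were above 0 and 6 below 0 in all 3 samples, with a median of -0.01. Of 32 conjugating enzymes 2 were above 0 and 6 below 0 in all 3 samples, with a median of -0.04. Gstm4, a glutathione transferase, was at -0.30, -0.36 and -0.80. Of 33 cytochrome P450 and electron donor genes, 6 were above 0 in all 3 samples and the median was 0.04. Cyp7a1, the rate-limiting enzyme of bile acid synthesis, was at 1.57, 1.76 and -0.43 (adjusted p = 0.653).
Ciao3, which takes part in the assembly of cytosolic iron-sulphur proteins, fell and is the 1 called gene on no list (GRCr8 chr10:15300403-15309467). Its recovered signals, in lowest terms, were 827 for sham and 217 for injury in sample 1, 1072 and 303 in sample 2, and 282 and 95 in sample 3. The injury signal was the lower in every sample. The ratios were -1.96, -1.70 and -1.56, with a mean of -1.74 ± 0.21 and an adjusted p of 0.0246. The day 4 and day 7 means were 0.49 and -0.01.
Of 32 liver transcription factors, 8 were above 0 and 4 below 0 in all 3 samples, with a median of 0.03 and none that passed. Onecut1, a regulator of hepatocyte and bile duct differentiation, had ratios of -1.69, -1.78 and -1.60 (adjusted p = 0.127), the means of 2 probe sets that disagreed (-3.04, -2.73 and -1.92 against -0.34, -0.84 and -1.29). Hnf4a, a central regulator of hepatocyte genes, was at 0.39, 0.68 and 0.53, and Nr0b2, a repressor of bile acid synthesis, at a mean of 1.03 with its 3 samples above 0.

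Matrix remodelling held one gene that rose. Mmp14 encodes a membrane-bound matrix metalloprotease that cleaves collagen and activates the gelatinase Mmp2 (GRCr8 chr15:31857824-31867049). Its ratios were 1.14, 1.12 and 1.04, nearly the same in the 3 samples, with a mean of 1.10 ± 0.05, 2.15-fold higher, and an adjusted p of 0.00737. All 3 day 2 samples lay above every sample of days 4 and 7, where the highest was 0.36. Mmp14 was chosen by its day 2 values, so this is a description. Its differences did not pass in the main limma test (adjusted p = 0.161 for day 2 minus day 4 and 0.186 for day 2 minus day 7). At day 2 it passed in 14 of the 18 other settings. Pcolce, which helps to cleave the ends of procollagen, had 0.84, 1.68 and 1.03 (adjusted p = 0.0555). Of the 33 members of the list, 20 were above 0, 5 above 0 and 3 below 0 in all 3 samples, and the median was 0.06. Markers of stellate cells, fibroblasts and smooth muscle had 3 members above 0 and 3 below 0 in all 3 samples of 20 measured, and a median of 0.07.

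Heat shock and housekeeping lists had medians close to that of all genes. Of 27 heat shock and unfolded protein response genes, 13 were above 0, 4 were above 0 and 4 below 0 in all 3 samples, and the median was -0.03. Hspa1a, the inducible chaperone gene, was at -0.09, 0.20 and 0.30 (mean 0.13 ± 0.20, adjusted p = 0.895). Hsp90ab1, a constitutive chaperone gene, was at 0.31, 0.46 and 0.34 (adjusted p = 0.323).
The median was 0.07 over 70 respiratory chain genes, 0.03 over 39 ribosomal protein genes, 0.04 over 39 proteasome and ubiquitin genes and 0.06 over 37 urea cycle and amino acid genes. No member of these 4 lists passed. At day 4 the respiratory chain and ribosomal medians were 0.32 and 0.32, and at day 7 -0.27 and -0.17.
Of 41 cell cycle genes, 6 were above 0 and 8 below 0 in all 3 samples, with a median of -0.07. Cdkn3, a phosphatase that acts on cyclin-dependent kinases, had recovered signals of 269 for sham and 48 for injury in sample 1, 355 and 46 in sample 2, and 1171 and 247 in sample 3. The log2 ratios were -2.52, -2.82 and -2.23 (adjusted p = 0.0922), low in every sample. The mitotic cyclin gene Ccnb2 was at -1.07, -0.69 and -1.69 (adjusted p = 0.298).
Antioxidant and metal-binding genes had 14 of 35 members above 0 and 5 below 0 in all 3 samples, and a median of 0.12 (0.18, 0.03 and 0.08 without sample 1, 2 and 3). Circadian clock genes and their outputs had 13 of 15 members with a mean above 0 but only 2 above 0 in all 3 samples. Their median was 0.32 at day 2 (0.15 without sample 1, 0.46 without sample 3), -0.32 at day 4 and 0.12 at day 7, and none passed. Bhlhe40, a repressor in the clock, was at 0.29, 0.34 and 0.65 (adjusted p = 0.487). Bile acid and transporter genes had 5 of 25 members above 0 in all 3 samples and a median of 0.21 (0.09 without sample 3). Among them, the bile salt export pump gene Abcb11 was at 0.25, 0.58 and 0.41 (adjusted p = 0.437).

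Markers of blood cells showed no common direction. No marker of neutrophils (9 measured) was above or below 0 in all 3 samples, and their median was 0.04. Of 12 macrophage and Kupffer cell markers, none was above 0 and 1 below 0 in all 3, with a median of 0.02. Of 15 T, B and NK cell markers, 3 were above 0 in all 3 and the median was -0.04. Red cell markers (5 measured) had medians of -0.24, -0.08 and 0.53 in samples 1, 2 and 3. Hepatocyte markers had 10 of 12 above 0, 4 of them in all 3 samples, and a median of 0.14 (0.22, 0.08 and 0.08 without sample 1, 2 and 3); Apob was the one that passed. Among 8 mast cell markers, Mcpt10, a mast cell protease, had large ratios of 2.46, 3.69 and 3.66 at low signal, with recovered signals of 57, 19 and 17 for sham and 320, 225 and 214 for injury (adjusted p = 0.0944). Of the 8 mast cell markers, 4 had a mean above 0 and 4 below, and the median was -0.01. In all 3 samples, 2 were above 0 and 1 below, the brighter Tpsb2 at -0.12, -0.25 and -0.48. Medians of the markers of other tissues lay between -0.19 (brain and nerve) and 0.22 (bile duct), and changed sign for several of them with 1 sample left out.

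Day 2 was then set against days 4 and 7. The 3′ minus 5′ actin value was -0.35, 0.38 and 0.23 in samples 1, 2 and 3 of day 4, and -0.88, -0.44 and -0.88 in those of day 7. The part of this balance in the differences between days was not tested. Each day has its own injury and sham signals: at most 0.187% of recovered signals were equal between any pair of these 9 arrays. For the 12 genes that rose at day 2, 10 had a mean above 0 at day 4 and 10 at day 7, and of the 3 that fell 2 and 3 had a mean below 0. The size was largest at day 2 of the 3 days for 14 of the 15, the exception being Apob with 0.86 at day 7. These genes were chosen by their day 2 values, so that order is a description. The test of the difference called 0 of 10411 genes (0%) for day 2 minus day 4 and 0 (0%) for day 2 minus day 7 by limma. At an unadjusted p under 0.05, 893 genes (8.58%) differed from day 4, 454 higher (4.36%) and 439 lower (4.22%) at day 2, and 857 (8.23%) from day 7, 506 higher (4.86%) and 351 lower (3.37%).
The smallest adjusted p for day 2 minus day 4 was that of Apob and Dusp1. Apob was at 0.70 at day 2 and -0.42 ± 0.02 at day 4, a difference of 1.12 (SE 0.15, adjusted p = 0.0627). Dusp1 was at 1.37 and -0.92 ± 0.14, a difference of 2.28 (SE 0.31, adjusted p = 0.0627). For both, the 3 samples of one day lay above 0 and the 3 of the other below. Without day 2 sample 1, Dusp1 passed in this contrast by limma (adjusted p = 0.0345). Both genes passed with array weights (adjusted p = 0.0409 for each) and with the dimmest bin left out (0.0496 for each). Apob also passed with the arrays scaled to equal spread (adjusted p = 0.0299). Neither passed in the remaining settings tried.
The sterol genes Sqle and Lss, the angiogenic factor gene Vegfa and Ciao3 came next, each with an adjusted p of 0.0866. Sqle was at 0.56 ± 0.21 at day 2 and -1.15 ± 0.26 at day 4. Lss, lanosterol synthase, was at 0.33 ± 0.46 and -1.84 ± 0.53. Vegfa was at 0.47 ± 0.13 and -0.44 ± 0.05, and its 2 probe sets had day 2 means of 0.75 and 0.18. Of the 18 cholesterol synthesis genes, 10 had an unadjusted p under 0.05 in this difference. For the markers of the exocrine pancreas, the median was -0.04 at day 2 and 1.40 at day 4, where 19 of 19 were above 0, and 8 of 19 had an unadjusted p under 0.05. Among them, the pancreatic lipase-related gene Pnliprp1 was at -1.22 ± 0.45 at day 2 and 2.50 ± 0.33 at day 4 (difference -3.72, SE 0.60, adjusted p = 0.0938). The part of these markers in the other differences from day 4 was not tested.
For day 2 minus day 7, Mmp14, Igfbp1, Tat and Jun shared the smallest adjusted p, 0.186, with the glutathione transferase gene Gstm2 and the matrix Gla protein gene Mgp. Igfbp1 was at 2.34 at day 2 and -0.63 ± 0.42 at day 7, a difference of 2.98 (SE 0.51). Without day 2 sample 1 it passed, with an adjusted p of 0.0387. Tat was at 0.97 at day 2 and -0.39 ± 0.20 at day 7, and Jun at 0.87 and -0.40 ± 0.08. Of the 29 immediate early and glucocorticoid-responsive genes, 9 had an unadjusted p under 0.05 against day 4 and 9 against day 7.

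At the level of single probe sets, 14 of 15866 passed (0.0882%), 11 above 0 (0.0693%) and 3 below 0 (0.0189%). Without adjustment, 1427 (8.99%) had a p under 0.05. They included probe sets of 11 of the genes above, a probe set of Kng2l1 (1.54, 1.98 and 0.80; mean 1.44 ± 0.60, adjusted p = 0.0488), and 2 with no single gene symbol. Of the last, one was at -1.74, -2.20 and -0.74 and the other at 1.08, 1.51 and 0.68.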

How the data were processed

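Rats with a thermal injury and sham rats were compared on 12 samples, 3 each at days 1, 2, 4 and 7. The authors deposited log2 ratios of 2 array signals; for scaling, software and order of division the sources used here give nothing, so depth is unknown and the number of arrays limits precision. For each ratio the whole-number pair behind it was searched (tolerance 1e-09); pairs of at most 3000 were found for 66.3% to 69.4% of ratios and can lack a common factor, and the wider search to 20000 served only for the signal of a probe set. Control probe sets (57 of 15923) were left out, each array was centred on its median (between -0.13 and 0.16), and probe sets with exactly 1 symbol in the platform annotation (12783; 312 had several, 2771 none) were averaged to 10411 genes, 1868 of them with over 1 probe set. Limma 3.58.1 in R 4.3.3 fitted a mean per day to the 9 arrays of days 2, 4 and 7 (6 residual degrees of freedom, variance prior following signal), with Benjamini-Hochberg adjustment over all genes and a threshold of 0.05. Tested on simulated data for day 2, with 50 of 10411 genes changed at each size, the shares found were 16% for log2 changes of 0.5, 46% for 1, 72% for 2 and 96% for 4, and 4 unchanged genes were called. All sizes were in the same simulated data, with normal noise independent between genes. More genes passed there than in the real data, which eases the adjusted threshold, so these shares may be too high for the real test. Gene lists (28 pathways, 16 marker sets) are described by counts and medians. Members, lists and tests were chosen with earlier results of these data known. Genes named are those called, the 15 higher and 15 lower with the smallest p and one sign, the leading 4 of each list, the leading 10 of each difference between days, and 20 fixed genes; other list members are given as values. Alternatives were no variance trend, all 12 arrays with no trend, other centring and scaling, a signal filter, the brightest probe set, a sample number block, array weights, day 2 alone and leaving out each sample. Names, positions and promoters are from RefSeq (GRCr8). Figures were drawn with matplotlib 3.10.9 in Python 3.11.15.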

Additional observations from a re-analysis of the deposited data

How the results depend on the processing

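No gene called at day 2 changed sign under any of the 18 alternatives in which it was measured (17 for Spink1, which is in the dimmest bin). Each of the 15 had the same sign in all 3 samples, and the alternatives reuse those samples. A change of sign was therefore hardly possible, and its absence is no test of the calls. The count of genes called at day 2 (15) became 0 with no variance trend, 0 over all 12 arrays with no trend either (so the arrays' own part cannot be told apart), 9 with the brightest probe set, 5 with array weights, 0 with the day 2 arrays alone, and 0 to 11 when 1 sample was left out. It stayed within 1.5 times with no centring (14), equal array spread (16) and the dimmest of 4 bins left out (17). Probe sets called (14) became 0, 0, 24, 3 with no trend, all 12 arrays and no trend, the dimmest bin left out and array weights, and 1 to 27 when 1 sample was left out. For day 2 minus day 4 (0 genes) the count was 1 over all 12 arrays with no trend, 1 with equal spread, 2 without the dimmest bin, 2 with array weights and 0 to 1 without 1 sample; for day 2 minus day 7 (0 genes) it was 0 to 1 without 1 sample. In these cases the cause was not tested, except that the day 2 arrays alone hold fewer samples. The deviations of same-numbered samples from their day means were little correlated (9 pairs, between -0.041 and 0.068). Pairs with different numbers lay between -0.122 and 0.106. These values cannot exclude that the numbers pair the samples, because samples of the same day also correlated little. With the sample number as a replicate block, 4 genes and 5 probe sets were called at day 2. Of the 15 genes, Mmp14 and Orm1 were called in 14 of 18 alternatives, Spink1l in 13, C4bpa and Prkaa2 in 12 and Ciao3 in 10. Cd36 was called in 8, Igfbp1 in 7, A2m in 6, Ces1d in 5 and Cyp2c12 in 4. Apob and Serpina10 were called in 3, Dusp1 in 2, and Spink1 in 7 of 17. List medians (the set of all genes counted with them) moved by less than the SD of the 3 sample medians in 302 comparisons and by more in 13. Each comparison kept all or most of the same samples, so larger moves were hardly possible and these counts do not measure stability. Named genes gave 149 weaker and 12 stronger calls in other settings. All 149 were of the 15 genes, since only a gene that passed can weaken. Signal limits what can be called: 1 of the 15 genes came from the dimmest bin.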
